A study of Mus musculus with 28 samples.

Results

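Male and female primordial germ cells (PGC, the cells of the embryo that later give rise to sperm and eggs) were compared at E13.5 (13.5 days post coitum). The comparison used the 2 arrays labelled male and the 2 labelled female at this stage, out of 28 arrays in the series, and covered the 7317 autosomal genes that passed a signal filter among 38727 genes on the array. The series profiled mouse germ cells, cultured cells and somatic tissue on single-colour (Cy3) Agilent arrays of total RNA. All 4 samples carry the strain label BDF1 x TgN(deGFP)18Imeg, and sex is the only label that separates them. The labels do not name the gonad, so the cells are called male and female here. They also do not state how the cells were isolated, how many embryos were pooled, or whether the 2 arrays of a sex came from separate pools. The p-values and standard errors (SE) rest on a spread pooled over the 14 groups of all 28 arrays, not on the E13.5 arrays alone. That spread could be technical.

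In the mouse, germ cells of both sexes reach the gonad before it takes on a testis or ovary fate. In the ovary they enter meiosis, which retinoic acid and BMP signalling promote through Stra8. In the testis meiosis is held back, and the cells stop dividing and take a male path in which Nodal signalling and the RNA-binding protein Nanos2 take part.

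Levels are log2 signals relative to the 75th percentile of each array, so a level of 0 equals that percentile and a difference of 1 is a doubling. A call is a Benjamini-Hochberg adjusted p under 0.05 in limma's moderated test, fitted over all 28 arrays and adjusted over all genes tested. Male replicate 1 and female replicate 1 shared a slide and a scan day, and so did male replicate 2 and female replicate 2. On these 4 arrays 38.9% and 33.1% of probes were well above background in males, against 37.7% and 46.9% in females. The Y-linked gene Eif2s3y was well above background on both male arrays and on neither female array, which fits the sex labels. Germ cell identity was checked with Ddx4, Dazl, Pou5f1 and Dppa3, and each was well above background on all 4 arrays.

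Of the 7317 autosomal genes, 592 were higher in males (8.09%) and 913 were lower (12.5%), together 20.6%. Every one of these 1505 genes differed in the same direction within both slide pairs. The calls were made on the mean of both pair differences, so this agreement is not independent of them. The median autosomal difference was -0.10 log2, with -0.09 within the first pair and -0.07 within the second. Both male arrays lay above both female arrays for 1938 genes (26.5%), and both lay below for 2573 genes (35.2%). With slide as a random block 2360 genes were called, with scan day as a block 1913, and with the replicate number as a block among the PGC arrays 1148. The balance of directions depended on the scaling. Background correction by normexp gave 282 higher and 165 lower genes with an autosomal median of 0.21, and the deposited value table gave 60 higher and 618 lower with a median of -1.15. Differences are therefore read against the median of the autosomal genes. In bulk RNA, fewer cells of a type and less RNA per cell cannot be told apart.

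**Figure D1:**
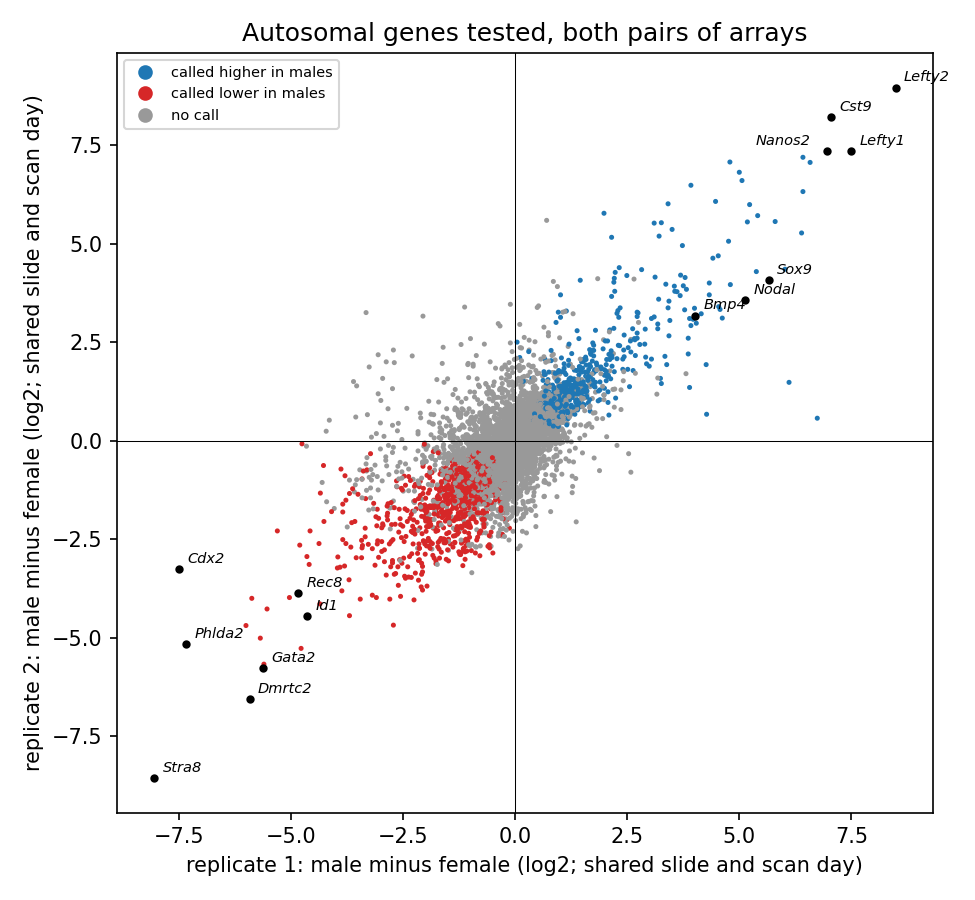
Male minus female difference (log2) of each autosomal gene tested, within the pair of arrays numbered 1 (horizontal axis) and within the pair numbered 2 (vertical axis). Blue points were called higher in males, red points lower and grey points had no call, with black points for named genes. All called genes lie at the lower left or the upper right of the crossing of the zero lines, with Stra8 at the lower left end and Lefty2 at the upper right end.

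Genes of meiotic entry were lower in males. Stra8, a vertebrate gene needed in mouse germ cells for the start of meiosis, and Rec8, a meiotic cohesin subunit, showed the clearest separation of the sexes. Their start-site regions are shown because the meiotic genes moved together here, and that of Nanos2, from the male side of the comparison, is shown beside them. The sequences are RefSeq's for build GRCm38.p6, 300 bases around the start of the transcript, read 5′ to 3′ on the strand of the gene, with matches to the searched motifs in capitals.
Stra8, chr6:34920698-34920997, plus strand: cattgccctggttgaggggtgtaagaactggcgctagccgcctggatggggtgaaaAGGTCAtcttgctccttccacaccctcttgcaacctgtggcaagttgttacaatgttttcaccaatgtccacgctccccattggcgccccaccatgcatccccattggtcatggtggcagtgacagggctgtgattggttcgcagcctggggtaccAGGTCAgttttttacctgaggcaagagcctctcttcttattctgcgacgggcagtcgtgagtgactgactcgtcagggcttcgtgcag
Sycp3, chr10:88459337-88459636, plus strand: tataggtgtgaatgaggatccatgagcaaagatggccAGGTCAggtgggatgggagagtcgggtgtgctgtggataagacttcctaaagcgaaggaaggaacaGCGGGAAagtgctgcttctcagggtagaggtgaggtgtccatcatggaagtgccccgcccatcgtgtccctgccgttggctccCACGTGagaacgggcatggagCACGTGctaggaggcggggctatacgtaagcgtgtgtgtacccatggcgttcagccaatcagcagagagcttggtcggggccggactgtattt
Rec8, chr14:55617916-55618215, plus strand: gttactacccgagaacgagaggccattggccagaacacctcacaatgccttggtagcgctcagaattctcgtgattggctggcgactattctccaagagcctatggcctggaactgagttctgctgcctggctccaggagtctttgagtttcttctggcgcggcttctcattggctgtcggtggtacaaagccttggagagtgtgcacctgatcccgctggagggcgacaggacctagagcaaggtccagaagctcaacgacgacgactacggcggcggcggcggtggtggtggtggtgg
Nanos2, chr7:18987274-18987573, plus strand: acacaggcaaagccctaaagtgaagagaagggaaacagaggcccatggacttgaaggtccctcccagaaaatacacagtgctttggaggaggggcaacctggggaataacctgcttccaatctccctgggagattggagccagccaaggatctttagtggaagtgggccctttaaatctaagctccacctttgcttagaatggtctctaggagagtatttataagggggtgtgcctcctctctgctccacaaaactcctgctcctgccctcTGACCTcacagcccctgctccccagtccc

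The motifs searched on both strands were AGGTCA (the half-site of nuclear receptors, among them those for retinoic acid), CACGTG (the E-box core), GCGGGAA (an E2F-type site), AATCCAC and TGACGTC, and none of their matches overlapped another in these windows. The window of Stra8 held AGGTCA at positions 57 and 213, counted from the first printed base. That of Sycp3 held AGGTCA at 38, GCGGGAA at 104 and CACGTG at 187 and 208. That of Nanos2 held AGGTCA on the opposite strand at 272 and not a single CpG, and that of Rec8 held none of the motifs. AGGTCA was in 13.1% of the windows of genes higher in males, 12.3% of those lower in males, 12.1% of those of all autosomal genes tested and 16.3% of all windows in the table. CACGTG was in 12.2%, 7.66%, 10.4% and 7.15% of the same sets. A match is a description of these letters and does not show that a factor binds there.

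Stra8 stood at -4.72 and -5.69 on the male arrays, against 3.34 and 2.87 on the female arrays. The sexes lay far apart, and the printed probe was well above background on 1 of the male arrays only. The male minus female difference was -8.31 ± 1.1 log2 (SE, adjusted p = 7.23e-05), and a second Stra8 probe, well above background on all 4 arrays, gave -7.50. Rec8 stood at -4.60 and -4.25 in males, against 0.25 and -0.38 in females. It was measured on all 4 arrays without overlap, with a difference of -4.36 ± 0.43 log2 (adjusted p = 4.02e-06), so that males had 0.0487 times the female level.

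Dmc1, the recombinase of meiotic strand exchange, stood at -6.18 and -5.52 in males, where 1 array was well above background, against -2.47 and -1.98 in females. Its difference was -3.62 ± 0.44 log2 (adjusted p = 3.41e-05), a call lost with normexp correction. Sycp3, an axial element protein of the synaptonemal complex that joins paired chromosomes, stood at -2.94 and -3.21 in males, against -0.26 and -1.09 in females. The difference was -2.40 ± 0.41 log2 (adjusted p = 0.000686). A second, much dimmer Sycp3 probe gave -0.69, and the call did not hold when probes were averaged. Tex12, a central element protein of the same complex, differed by -2.31 ± 0.40 log2 (adjusted p = 0.000741). Tex15, needed in mouse spermatocytes for double-strand break repair, differed by -2.04 ± 0.32 log2 (adjusted p = 0.000277), and the cohesin subunits Smc1b and Stag3 by -1.97 and -1.35 log2. None of these genes overlapped between the sexes.

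The list of meiotic entry and prophase genes had 49 autosomal members. Probes named for 25 of them were on the array, and 23 passed the filter. Of these, 8 were lower in males and 0 higher, beside 12.5% and 8.09% of all autosomal genes. Both male arrays lay below both female arrays for 21 of the 23, beside 35.2%. The list median was -1.35 log2 (-1.47 and -1.23 within the pairs). Over the 18 members measured on all 4 arrays it was -1.25, with 7 of them lower, beside 10.2% of the 5800 autosomal genes so measured. Several prophase genes leaned the same way without a call. Sycp1 differed by -1.52 ± 0.55 log2 (adjusted p = 0.0625), Hormad1 by -1.30 ± 0.59 (adjusted p = 0.137) and Spo11, which makes the meiotic double-strand breaks, by -1.01 ± 0.38 (adjusted p = 0.0752). Trip13 (0.29 log2) was the only tested member with both male arrays above both female arrays. Dazl, an RNA-binding protein that licenses germ cells for meiosis in mice, stood at 1.62 and 1.92 in males, against 1.73 and 2.03 in females. It had no call (-0.11 ± 0.69 log2, adjusted p = 0.937) and its levels overlapped.

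**Figure D2:**
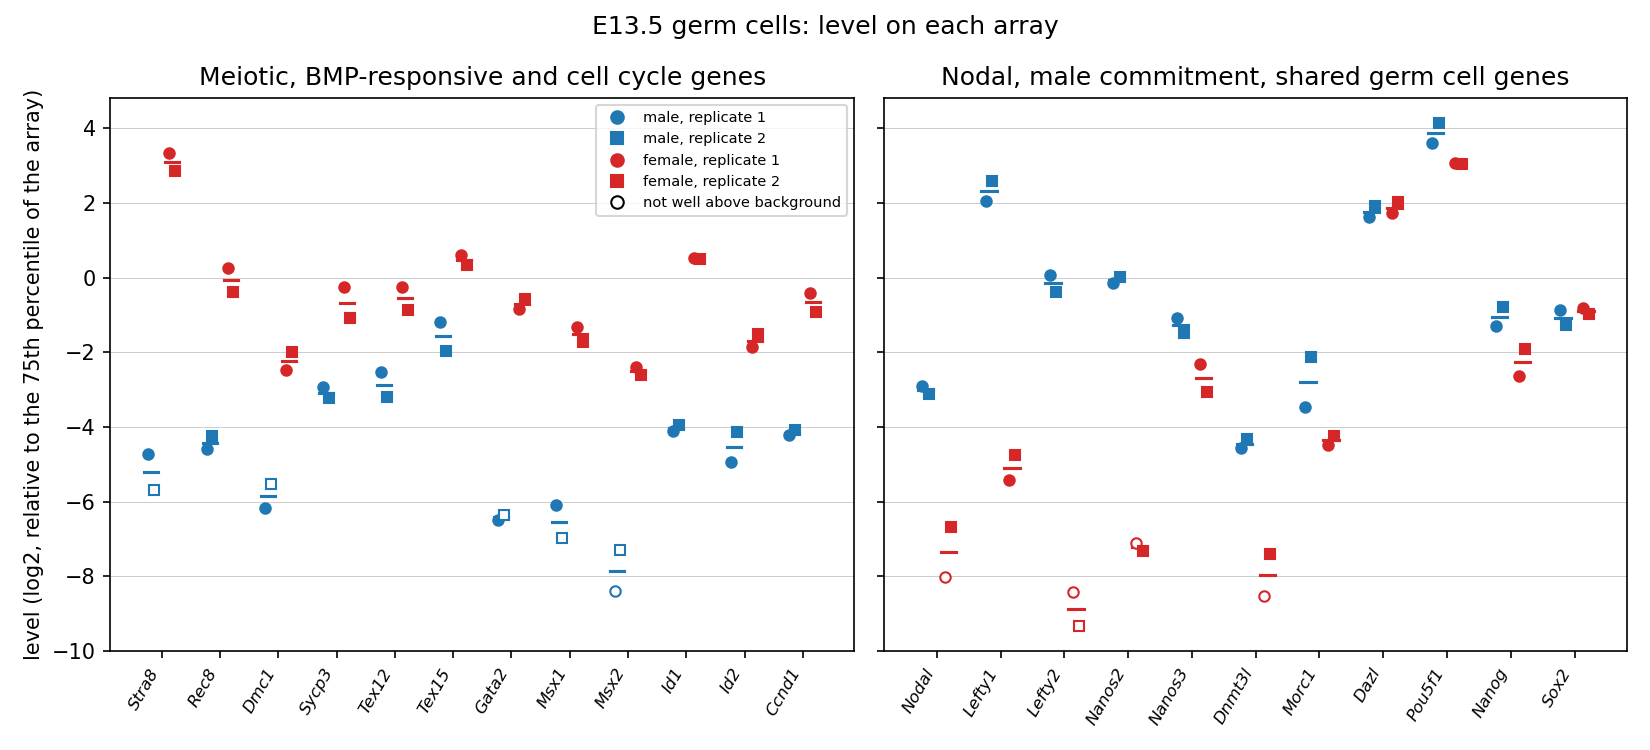
Level of 23 named genes on each E13.5 array (log2, relative to the 75th percentile of the array), males in blue left of females in red. Circles are replicate 1, squares replicate 2, bars the mean of each sex, and open symbols arrays on which the plotted probe was not well above background. Stra8 and Rec8 sit high in females, Lefty1, Lefty2 and Nanos2 high in males, and Dazl and Sox2 overlap.

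Nodal signalling genes ran the other way. Lefty1, which encodes a secreted antagonist of Nodal and is itself a target of the pathway, stood at 2.06 and 2.59 in males, against -5.43 and -4.76 in females. It was measured on every array, and the difference was 7.42 ± 0.55 log2 (adjusted p = 6.49e-07), which is 171-fold. Lefty2, a paralogue with the same role, stood at 0.07 and -0.38 in males, against -8.42 and -9.33 in females, where it was not well above background. It was at least 137-fold higher in males, a bound that sets each dim array at the higher of its own value and the lowest signal well above background on that array (adjusted p = 8.19e-07). The ligand Nodal stood at -2.89 and -3.12 in males, against -8.02 and -6.69 in females, where it was well above background on 1 array. Its difference was 4.35 ± 0.75 log2 (adjusted p = 0.000684, and 0.0582 under quantile normalization).

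The receptor and transducer genes of the pathway showed small differences. Acvr2b, a type II receptor, differed by 0.15 ± 0.22 log2 (adjusted p = 0.694), and Smad2, Smad3 and Smad4, which carry the signal to the nucleus, by -0.27, 0.13 and 0.50 log2 without a call. Foxh1, a DNA-binding partner of Smad2, was lower in males, at -0.70 ± 0.22 log2 (adjusted p = 0.0329), a call lost under most alternatives, among them without male array 2 (-0.44 log2, adjusted p = 0.314) and without either female array (-0.79 and -0.62, adjusted p = 0.0851 and 0.17), and with the replicate block (adjusted p = 0.134). The co-receptor Tdgf1 was not well above background on any of the 4 arrays and was not tested.

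Nanos2, which in mice represses meiosis and is needed for the male path, stood at -0.15 and 0.03 in males, against -7.10 and -7.32 in females, where 1 array was well above background. The difference was 7.15 ± 0.99 log2 (adjusted p = 0.000108). Nanos3, which supports germ cell survival in mice, stood at -1.07 and -1.47 in males, against -2.31 and -3.05 in females, a difference of 1.41 ± 0.47 log2 (adjusted p = 0.0448). Its call was lost when any 1 of the 4 arrays was left out (1.04 to 1.79 log2, adjusted p = 0.0633 to 0.278). Dnd1, a partner of the Nanos proteins, differed by 0.58 ± 0.31 log2 (adjusted p = 0.22). Of 18 autosomal members of the Nodal and male commitment list, 13 were tested, and 7 were higher and 1 lower in males, beside 8.09% and 12.5%. The median was 1.37 log2. Over the 9 members measured on all 4 arrays it was 0.50, with 3 higher and 1 lower, beside 8.4% and 10.2% of autosomal genes so measured. Lefty2, Nodal and Nanos2 were among the members that passed the filter only through the males, where they are high.

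Genes that respond to BMP signalling were lower in males. Id1, a transcriptional inhibitor and direct BMP target, stood at -4.11 and -3.94 in males, against 0.54 and 0.51 in females. All 4 arrays measured it and its replicates lay close together, with a difference of -4.55 ± 0.62 log2 (adjusted p = 9.01e-05). Id2 and Id3 differed by -2.85 ± 0.46 and -2.46 ± 0.45 log2 (adjusted p = 0.000387 and 0.00117), while Id4 differed by -0.20 ± 0.25 (adjusted p = 0.633).

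Gata2, a transcription factor gene, stood at -6.48 and -6.36 in males, where 1 array was well above background, against -0.85 and -0.58 in females. The difference was -5.70 ± 0.55 log2 (adjusted p = 3.5e-06). Msx1 and Msx2, homeobox genes that BMP induces in many embryonic tissues, went the same way. Msx1 stood at -6.10 and -6.98 in males, where 1 array was well above background, against -1.32 and -1.71 in females (-5.03 ± 0.50 log2, adjusted p = 4.59e-06). Msx2 was not well above background in males and was at least 10.5-fold lower there (adjusted p = 1.7e-06), and Gata3 was at least 7.29-fold lower (adjusted p = 7.08e-05).

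Upstream parts of the pathway did not share this size of difference. The receptor gene Bmpr1a was lower in males, at -0.84 ± 0.26 log2 (adjusted p = 0.0329), and the extracellular antagonist Chrd by -1.28 ± 0.39 (adjusted p = 0.0286). Smad1 and Smad5, the transducers, differed by 0.57 and -0.15 log2 without a call. The ligand gene Bmp4 was the exception in direction. It stood at -4.21 and -2.76 in males, against -8.22 and -5.93 in females, where 1 array was well above background. The difference was 3.59 ± 0.77 log2 (adjusted p = 0.0036). It was 2.87 without male array 2 (adjusted p = 0.0595) and 2.45 without female array 1 (adjusted p = 0.0788). Bmp4 is made by somatic cells in many tissues and is also on the pregranulosa list below. Of 29 autosomal BMP list members 19 were tested, with 9 lower and 1 higher in males, beside 12.5% and 8.09%, and a median of -1.19 log2. Both male arrays lay below both female arrays for 13 of them, beside 35.2%. Over the 11 members measured on all 4 arrays the median was -0.55, with 4 lower, beside 10.2% of autosomal genes so measured.

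Retinoic acid genes were split. The binding proteins Crabp1 and Crabp2, which hold retinoic acid inside the cell, were lower in males, at -1.78 ± 0.42 and -1.13 ± 0.31 log2 (adjusted p = 0.00645 and 0.0171). Without female array 1 these differences were -1.66 and -0.95 log2 (adjusted p = 0.0601 and 0.139), and the call of Crabp2 was also lost without male array 1 (adjusted p = 0.106). Aldh1a1, which makes retinoic acid, was higher in males. It stood at -0.17 and -1.1, against -4.21 and -4.07 in females (3.51 ± 1.01 log2, adjusted p = 0.0218), and its call was lost when any 1 of the 4 arrays was left out (3.05 to 3.97 log2, adjusted p = 0.0566 to 0.105). Cyp26b1, which breaks retinoic acid down and is known from mouse Sertoli cells, stood at -3.10 and -4.20 in males, against -5.78 and -5.91 in females, without a call (2.20 ± 1.12 log2, adjusted p = 0.186). Of 22 autosomal members 11 were tested, 4 lower and 1 higher in males, beside 12.5% and 8.09%. Aldh1a1 and Cyp26b1 are also on the Sertoli list below.

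Genes of the piRNA pathway and of de novo DNA methylation silence transposons and set imprints in male germ cells. Most of those tested, 11 of 15, had no call. Of the 15, 3 were higher and 1 lower in males, beside 8.09% and 12.5%, and the median was -0.29 log2. After normexp correction 0 were higher and 0 lower. Dnmt3l, the cofactor of the de novo methyltransferases, stood at -4.56 and -4.33 in males, against -8.53 and -7.41 in females, where 1 array was well above background. The difference was 3.52 ± 0.79 log2 (adjusted p = 0.00483), and the call was lost without female array 1 (2.96 log2, adjusted p = 0.0676) and with the replicate number as a block among the PGC arrays (adjusted p = 0.0722). The enzyme genes Dnmt3a and Dnmt3b differed by -0.43 and 0.43 log2 without a call.

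Morc1, which is needed for transposon silencing in mouse male germ cells, was higher in males by 1.57 ± 0.49 log2 (adjusted p = 0.0329), with -3.46 and -2.12 in males and -4.49 and -4.23 in females. It was 0.90 log2 without male array 2 (adjusted p = 0.344), 1.44 without female array 1 (adjusted p = 0.163) and 1.70 without female array 2 (adjusted p = 0.0908), and with the replicate block its adjusted p was 0.0777. Tdrd12 was higher by 0.90 and Tdrd7, another Tudor-domain gene, lower, at -0.94 ± 0.29 log2 (adjusted p = 0.0315 and 0.0281). The call of Tdrd7 was lost without any 1 array (-1.1 to -0.78 log2, adjusted p = 0.0559 to 0.183) and with the replicate block (adjusted p = 0.0984), and that of Tdrd12 without any but male array 1 (0.70 to 1.02, adjusted p = 0.073 to 0.225), and in the deposited value table Tdrd12 had a difference of -0.15. The autosomal median of the deposited value table was -1.15. Piwil2, a piRNA-binding Argonaute protein, stood at 1.1 and 1.07 in males, against 1.38 and 1.37 in females (-0.29 ± 0.22 log2, adjusted p = 0.398). None of 7 tested genes of the maintenance methylation list passed, beside 20.6% of autosomal genes. Dnmt1 differed by -0.51 ± 0.46 log2 (adjusted p = 0.485) and Uhrf1 by -0.36 ± 0.36 (adjusted p = 0.546).

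Pluripotency genes, which early germ cells share with embryonic stem cells, lay somewhat higher in males. Both male arrays lay above both female arrays for 13 of the 20 tested members, beside 26.5% of autosomal genes, and the median was 0.66 log2. Of the 20, Dppa3 and Dppa4 were called higher and Lin28b lower (-0.70 ± 0.20 log2, adjusted p = 0.024), beside 8.09% and 12.5% of autosomal genes. The Lin28b call was lost without any array but male array 1 (-0.78 to -0.58 log2, adjusted p = 0.0693 to 0.172) and with the replicate block (adjusted p = 0.0539). Dppa3, which protects DNA methylation in the early embryo, stood at 2.18 and 2.62 in males, against 0.81 and 0.84 in females (1.57 ± 0.33 log2, adjusted p = 0.00282). Dppa4, a chromatin protein, stood at 2.19 and 2.32 in males, against 0.69 and 1.08 in females (1.37 ± 0.39 log2, adjusted p = 0.0204), and its call was lost without any array but female array 2 (1.18 to 1.44 log2, adjusted p = 0.051 to 0.146). Nanog stood at -1.29 and -0.79 in males, against -2.62 and -1.91 in females, a difference of 1.23 ± 0.47 log2 with no call (adjusted p = 0.0751, and 0.0119 under quantile normalization). Pou5f1, the core pluripotency factor, stood at 3.60 and 4.14 in males, against 3.06 and 3.04 in females (0.82 ± 0.56 log2, adjusted p = 0.341). Sox2 differed by -0.18 ± 1.14 log2 (adjusted p = 0.939) and overlapped. In the deposited value table the Dppa3 and Dppa4 differences were 0.52 and 0.32, neither called, that of Pou5f1 was -0.23, and the list median was -0.39 beside the autosomal -1.15.

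Early germ cell genes held members of both directions. Tex101, a germ cell surface protein, stood at -1.29 and -1.33 in males, against 2.13 and 1.39 in females, a difference of -3.07 ± 0.35 log2 (adjusted p = 1.74e-05). Cdh1, the adhesion molecule E-cadherin, stood at 0.61 and 0.76 in males, against -1.52 and -0.80 in females (1.85 ± 0.39 log2, adjusted p = 0.00306, and 1.49 with an adjusted p of 0.0556 without female array 1). Alpl, the alkaline phosphatase long used to mark PGC, was lower in males, at -0.69 ± 0.22 log2 (adjusted p = 0.0329), a call lost without any 1 array (-0.82 to -0.57 log2, adjusted p = 0.0701 to 0.194) and with the replicate block (adjusted p = 0.0912). Kit, the receptor for stem cell factor, had no call (-0.51 ± 0.28 log2, adjusted p = 0.223), nor had Ddx4, the germ cell RNA helicase (-0.22 ± 0.46, adjusted p = 0.794). Of 17 tested members 3 were higher and 3 lower, beside 8.09% and 12.5%. Among these calls are Dppa3, Nanos3 and Sycp3, which are given above with other lists.

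Few of the tested cell cycle genes were called. Ccnd1, cyclin D1 of the G1 phase, stood at -4.21 and -4.09 in males, against -0.40 and -0.91 in females, a difference of -3.50 ± 0.35 log2 (adjusted p = 4.73e-06). Cdkn2d, an inhibitor of the cyclin D kinases, stood at -2.67 on both male arrays, against -0.26 and -0.62 in females (-2.23 ± 0.21 log2, adjusted p = 2.62e-06). E2f2, a factor for S phase genes, differed by -2.04 ± 0.37 log2 (adjusted p = 0.000997), with 1 male array well above background. Among 24 tested proliferation genes only Rrm2, a subunit of the enzyme that makes deoxynucleotides, was called (-0.92 ± 0.19 log2, adjusted p = 0.0023), beside 20.6% of autosomal genes, and the list median was 0.04. Top2a, Cdk1 and Plk1 differed by 0.12, -0.01 and 0.03 log2. The cell cycle arrest list had 3 of 14 members lower and 0 higher, beside 12.5% and 8.09%, and Cdkn1a and Cdkn1c, inhibitors of cyclin-dependent kinases, differed by -0.14 and -0.80 without a call.

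Among other signalling genes, Dusp6, a feedback inhibitor of FGF signalling, was higher in males by 1.62 ± 0.41 log2 (adjusted p = 0.00963). Of 7 tested FGF list members this was the only call, beside 20.6% of autosomal genes called. It was lost without male array 2 (1.5 log2, adjusted p = 0.0732) or female array 1 (1.35, adjusted p = 0.103). Nkd1, a Wnt feedback inhibitor, was lower, at -2.62 ± 0.26 log2 (adjusted p = 4.83e-06), with -4.50 and -4.37 in males and -1.78 and -1.86 in females. The Wnt receptor gene Fzd3 was lower, at -1.80 ± 0.42 (adjusted p = 0.00618, and -1.39 with an adjusted p of 0.0923 without male array 2). With the replicate number as a block among the PGC arrays its adjusted p was 0.0556, and it was well above background on 1 male array. The other tested members of the Wnt list, 17 of 19, had no call, beside 20.6% of autosomal genes called. Axin2, a common Wnt target, differed between the male arrays by more than between the sexes, at -9.02 and -4.40 in males, against -5.46 and -5.00 in females.

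Some genes known from the oocyte were higher in males at this stage. Ooep, a maternal-effect gene, stood at 0.22 and 0.08 in males, against -1.80 and -1.68 in females (1.89 ± 0.33 log2, adjusted p = 0.000824). Zp1, an egg coat gene, was at least 6.41-fold higher in males (adjusted p = 0.0066, and 0.0546 without male array 2). Figla, a transcription factor of the mouse oocyte, was not well above background in males and stood at -5.05 and -5.49 in females, without a call (adjusted p = 0.0957). Most of the oocyte list, 11 of 18 members with a probe, was too dim for a test in either sex.

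Of 14 imprinted genes tested, 3 were called, a share close to the 20.6% of all autosomal genes. Phlda2, a growth-restricting imprinted gene known from the placenta, stood at -7.59 and -5.69 in males, where it was not well above background, against -0.24 and -0.52 in females. It was at least 45.4-fold lower in males (adjusted p = 8.19e-07). Mest was higher in males by 2.16 ± 0.36 log2 (adjusted p = 0.000488) and Gatm, the enzyme of the first step of creatine synthesis, by 3.09 ± 0.94 (adjusted p = 0.0284). Gatm was well above background on 1 of the female arrays. The Gatm call was lost without any array but male array 2 (2.31 to 3.48 log2, adjusted p = 0.0684 to 0.172) and with the replicate block (adjusted p = 0.138). Peg3 and Snrpn differed by 0.36 and 0.19 log2 without a call.

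Genes outside the lists also had large differences. Among the 12 autosomal genes with the largest differences towards males, chosen by size, were Hesx1, a homeobox repressor, Mybpc3, a protein of cardiac muscle, Krt42, a keratin, Ucma, a cartilage matrix protein, and Pmaip1, a pro-apoptotic gene. All 5 were not well above background in females, and they were at least 27.0-fold, 24.4-fold, 17.6-fold, 12.7-fold and 45.6-fold higher in males. Among the 12 with the largest differences towards females was Dmrtc2, a gene of the DM-domain family, at -6.00 and -7.26 in males, against -0.07 and -0.70 in females (-6.24 ± 0.47 log2, adjusted p = 6.49e-07). Dmrtc2 was well above background on 1 of the male arrays. The stem cell surface protein gene Prom1 was at least 20.5-fold lower in males, the kinase gene Aatk at least 12-fold and the homeobox gene Hmx1 at least 6.58-fold. The homeobox gene Cdx2 stood at -8.85 and -5.08 in males, where this probe was not well above background, against -1.34 and -1.83 in females. By this probe it was at least 19.7-fold lower in males (adjusted p = 0.00477). The call was lost without male array 1 (adjusted p = 0.0683), and a second Cdx2 probe, measured on 1 male and both female arrays, gave -1.56 log2.

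**Figure D3:**
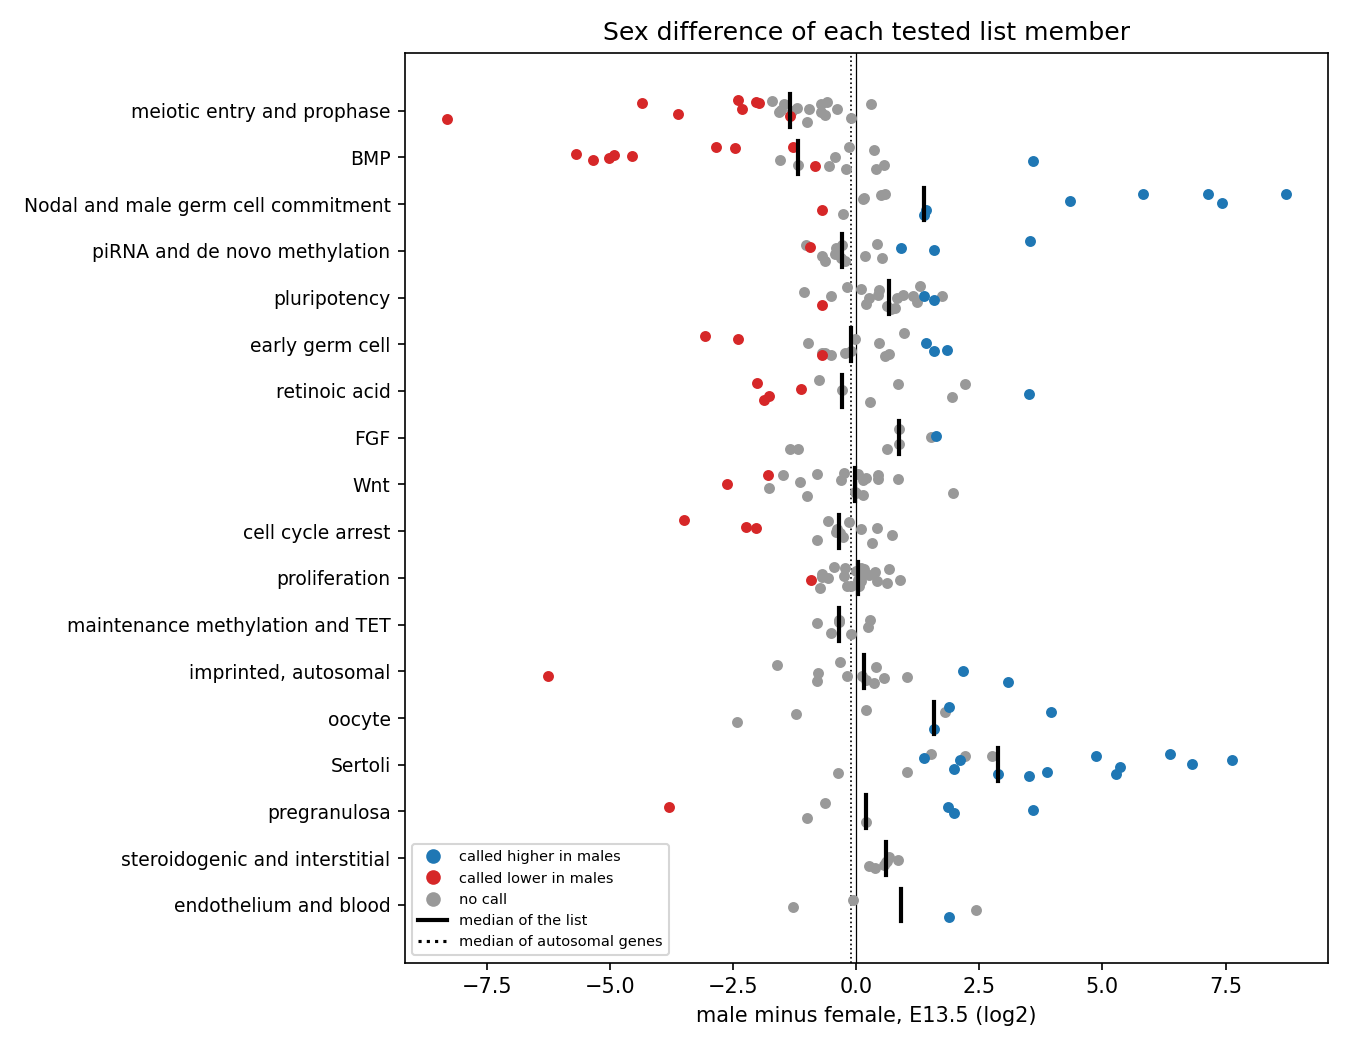
Male minus female difference at E13.5 (log2) of each tested member of the gene lists, one row per list, with blue points called higher in males, red points lower and grey points without a call. Black bars are list medians, for example -1.35 for meiotic genes, 1.37 for Nodal and male commitment genes and 2.87 for Sertoli genes, and the dotted line is the median of the autosomal genes, -0.10.

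Genes typical of Sertoli cells, the supporting cells that surround germ cells in the testis, were present in the male samples. Of 31 autosomal list members 17 were tested, 12 were higher in males and 0 lower, beside 8.09% and 12.5%, and both male arrays lay above both female arrays for 16, beside 26.5%. Members dim in females passed the filter only through the males, where they are high. Over the 8 members measured on all 4 arrays, 4 were higher, beside 8.4% of autosomal genes so measured, and the median was 2.15 log2. With a common floor 6 of the 17 were higher with a median of 0.44. Sox9, the Sertoli cell determinant, stood at -2.69 and -3.76 in males, against -8.35 and -7.83 in females, where 1 array was well above background. The difference was 4.86 ± 0.64 log2 (adjusted p = 6.79e-05). The cystatin gene Cst9 was at least 77.7-fold higher, the prostaglandin D synthase gene Ptgds at least 36.2-fold, the defensin gene Defb19 at least 38.8-fold, Hsd17b3 at least 14.2-fold and Mro at least 12.6-fold. Clu, a secreted chaperone, differed by 3.87 ± 0.66 log2 (adjusted p = 0.000624). Cst9, Ptgds and Defb19 were among the 12 largest differences towards males. The summed level of the list was 2.57 and 1.61 in males, against -0.45 and -0.26 in females. Gata4 and Sox8 were not well above background on any of the 4 arrays, and Dhh, a Sertoli signal, was on 1 male array.

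The male arrays differed from each other in these genes. Of the 12 Sertoli genes called higher, 10 were higher on male array 1 than on male array 2, with a median difference of 1.01 log2. For the 7 called Nodal and male commitment genes the same median was -0.11, with 3 higher on array 1, and over 586 autosomal genes higher in males and measured on both male arrays it was -0.09. Nodal, Lefty1, Lefty2 and Nanos2 each differed between the male arrays by 0.53 log2 or less. Aldh1a1 differed by 0.92 log2, and Morc1 and Bmp4 by -1.33 and -1.45. Any part of Sertoli cell RNA in the other genes higher in males was not tested.

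**Figure D4:**
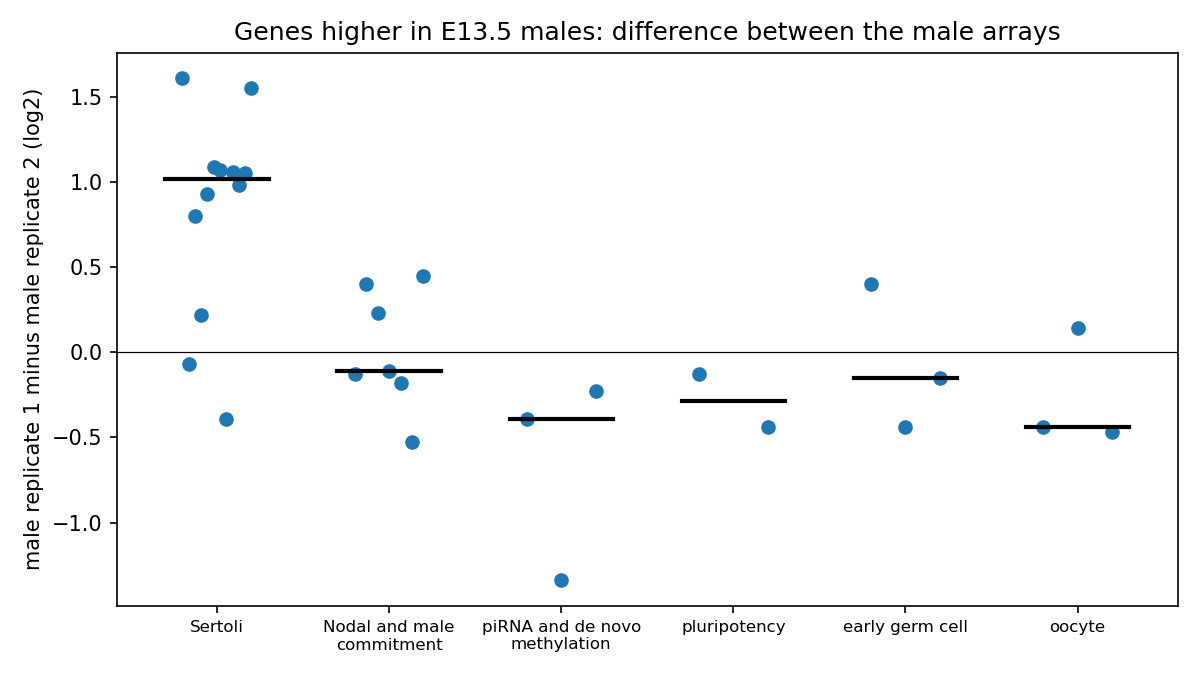
Male array 1 minus male array 2 (log2) for the genes called higher in E13.5 males and measured on both male arrays, by list, with black bars for the list medians. Sertoli genes centre on 1.01, and Nodal and male commitment genes on -0.11.

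Of the lists of other somatic cells, few members were tested. Of the pregranulosa list, the supporting cells of the ovary, 7 of 19 autosomal members were tested. Of these, 3 were higher and 1 lower in males, beside 8.09% and 12.5%. Irx3 was at least 2.78-fold lower in males (adjusted p = 0.000124), while Gng13, Wt1 and Bmp4 were higher in males, and Wt1 is also known from Sertoli cells. Wt1 and Bmp4 were each well above background on 1 female array. The Wt1 call (1.98 ± 0.53 log2, adjusted p = 0.0148) was lost without any array but male array 1 (1.90 to 2.07 log2, adjusted p = 0.0595 to 0.0896). Foxl2, the defining factor of that lineage, was not well above background on either female array and was not tested. By a second probe it was well above background on 1 male array. The summed level of the list was -0.26 and -0.20 in males, against -1.54 and -1.45 in females. None of 7 tested members of the steroidogenic and interstitial list was called, beside 20.6% of autosomal genes. The summed level of that list was -0.96 and -1.18 in males, against -1.59 and -1.83 in females, and Star was dim on all 4 arrays. Of the endothelium and blood list only Cldn5 was called (1.89 ± 0.56 log2, adjusted p = 0.0255), and the call was lost without any 1 array (1.81 to 1.96 log2, adjusted p = 0.0631 to 0.121). That list had 4 tested members, so 1 of 4 was called, beside 20.6% of autosomal genes. Its summed level was 0.19 and -0.67 in males, against -0.50 and -2.11 in females. The haemoglobin gene Hba-a1 stood at -0.33 and -2.32 in males, against -1.28 and -6.23 in females, so it was lower on the second array of both sexes. The endothelial genes Cdh5 and Kdr were dim on all 4 arrays.

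The same contrast was set beside E10.5 and E17.5, the other stages with 2 male and 2 female PGC arrays. At E10.5, before the gonad takes on its sex, 0 of 5171 autosomal genes tested (0%) were called by limma, with 127 at an unadjusted p under 0.05. The first E10.5 arrays had 17.8% (male) and 24.6% (female) of probes well above background, against 40.5% and 40.9% on the second. The 0 calls therefore do not show that the sexes were equal. The difference between the E13.5 and the E10.5 contrast, which shares the E13.5 arrays with the values above, passed for 522 of 7317 genes (7.13%), 185 towards higher and 337 towards lower in males. With the percentile taken over all probes that split was 167 and 184, and after normexp correction 22 and 25. Lefty1 differed by 0.55 log2 at E10.5 without a call. Stra8, Rec8 and Nanos2 did not pass the filter at E10.5 and were not tested there, Stra8 and Nanos2 being well above background on none of the 4 arrays.

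At E17.5, when male germ cells have stopped dividing and female ones are in meiotic prophase, 4911 of 8418 autosomal genes were called (58.3%). These were 3077 higher and 1834 lower in males. Of the 1505 genes called at E13.5, 1457 were tested at E17.5, where 640 were called in the same direction and 361 in the opposite one. How many would share or reverse direction without a link between the stages was not tested. The difference between the E17.5 and E13.5 contrasts passed for 3090 of 8680 genes (35.6%). Rec8 was higher in males at E17.5 by 4.41 log2 (adjusted p = 6.41e-07), against -4.36 at E13.5, with 1 of the 2 E17.5 female arrays well above background. Phlda2, Msx2 and Aatk were also higher in males at E17.5, and no female array of that stage had any of them well above background. They were at least 6.56-fold, 6.15-fold and 32.4-fold higher (adjusted p = 8.07e-07, 2.92e-05 and 1.06e-08). Id1 was lower in males at both stages, with -5.84 at E17.5 (adjusted p = 1.61e-06), and so was Sycp3, with -4.06 (adjusted p = 1.07e-06). Dnmt3l and Lefty1 were dim on both E17.5 female arrays too, with males at least 946-fold above females for Dnmt3l (adjusted p = 2.53e-08) and at least 4.36-fold for Lefty1 (adjusted p = 1.46e-05). Dppa3 and Cdh1 were lower in males at E17.5, at -3.63 and -1.51 log2 (adjusted p = 2.59e-07 and 0.00422). Lefty2, Nanos2 and Nodal were too dim at E17.5 for a test.

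**Figure D5:**
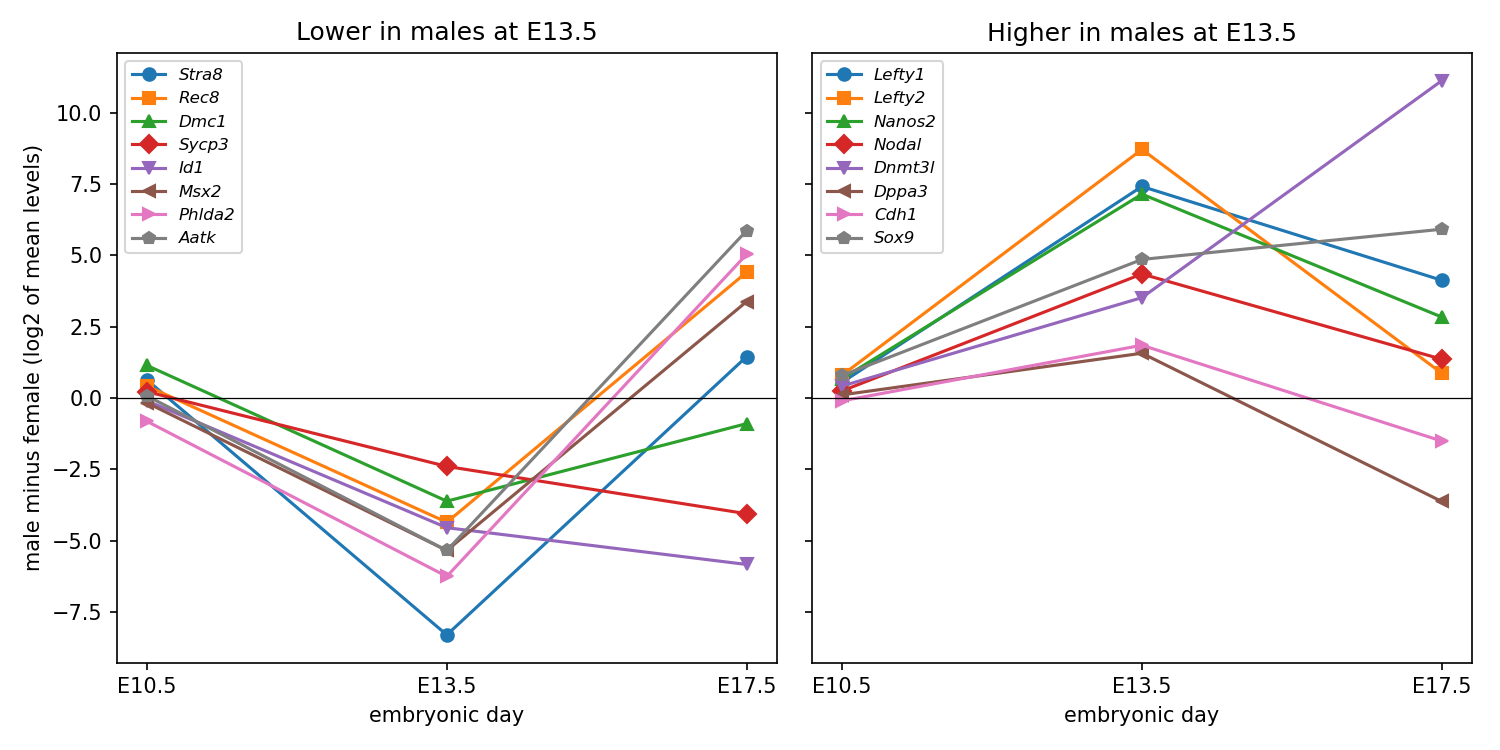
Male minus female difference of mean levels (log2, 2 arrays per sex) at E10.5, E13.5 and E17.5, for 8 genes lower in males at E13.5 on the left and 8 genes higher on the right. Points at all 3 stages include genes that were not well above background in 1 or both sexes, and those show a direction but not a size. Rec8 lies at 0.42, -4.36 and 4.41 and Id1 at -0.10, -4.55 and -5.84 in stage order.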

How the data were processed

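The processing steps behind the comparison of E13.5 male and female PGC were as follows. The scanner files held Cy3 intensity per spot, extracted by the authors with Agilent Feature Extraction 10.5.1.1 per the file headers, on a design annotated to mm9. The deposited value table held log2 values that equal each array's log2 processed signal minus its median to within 0.00252 (column medians -7.34e-05 to 0.00251). Per the labels, cRNA was made from total RNA.

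Control spots (1417) were left out. Of 43803 probes, each a single spot, the 514 flagged non-uniform on any array were also left out. Values are log2 of the processed signal minus the array's 75th percentile over the 7227 probes well above background on all 28 arrays. Probes were named through RefSeq accessions (16759 probes to 13142 symbols), and the brightest of several probes stands for a gene. A gene entered the test if both arrays of 1 sex, or all 4, measured it well above background. limma 3.58.1 in R 4.3.3 was fitted to all 28 arrays in 14 groups (14 residual degrees of freedom) with no block. A trial of the fit on simulated data drew noise independently for each array. Same-numbered arrays here deviated together, and that trial does not cover such shared deviations. P-values were adjusted over 13801 genes, and the 7317 on autosomes are reported. Only 2 arrays per sex limit the precision. No spot was saturated.

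The files have no mean-signal column for normexp, so the median foreground signal was used. Other alternatives changed scaling, filter, probe choice, arrays fitted and blocks. The members and gene lists were chosen with earlier results of these data known. Genes named were, by rule, up to 6 called members per list and direction, 12 further calls per direction by size, and a fixed set of germ cell and supporting cell genes. Other list members were named after their values were seen. Some genes that meet the rule are not reported here, and list counts include them. Same-numbered male and female arrays deviated together (r = 0.45 over 5800 genes at E13.5) and share slide and scan day per the file headers.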

Additional observations from a re-analysis of the deposited data

Results flagged for a closer look

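Every result here was picked out because the male minus female difference itself differed between 2 stages by limma's interaction test (adjusted p under 0.05), and values are log2. No group had enough arrays for an outlier test. The E13.5 arrays enter both comparisons, so these are not independent of each other. Most genes named here were chosen by their E13.5 difference, which is part of every value below. The signs and sizes are therefore no separate support for that difference. Where a sex had no array well above background at 1 of the 2 stages, the value includes a background signal and gives a direction but no size. Between E13.5 and E10.5 the sex difference differed for 522 autosomal genes, and between E17.5 and E13.5 for 3090. Of these, 506 and 789 were also called at E13.5.

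The E13.5 difference minus the E10.5 difference was negative for the meiotic genes, with Stra8 -8.94, Rec8 -4.78, Dmc1 -4.76, Sycp3 -2.62, Tex12 -2 and Tex15 -2.14, and for BMP-responsive genes, with Gata2 -5.25, Msx1 -6.11, Msx2 -5.18, Gata3 -5.42, Id1 -4.45 and Id2 -2.83. It was positive for the Nodal pathway and Nanos2, with Lefty1 6.87, Lefty2 7.92, Nodal 4.10 and Nanos2 6.47, and for Sertoli genes, with Cst9 5.37, Ptgds 6.29, Hsd17b3 4.94, Mro 4.45 and Sox9 4.07. Other positive values were Cdh1 1.95, Mest 1.73, Ooep 1.76, Hesx1 4.85, Mybpc3 5.60, Krt42 5.46 and Pmaip1 5.15. Other negative values were Nkd1 -2.65, Ccnd1 -3.51, Cdkn2d -1.92, E2f2 -2.42, Tex101 -2.74, Irx3 -3.42, Phlda2 -5.44, Dmrtc2 -6.35, Prom1 -5.42, Aatk -5.41 and Hmx1 -5.64. Of these 39 genes, 18 had no array well above background in at least 1 sex at 1 of the 2 stages, namely Stra8, Nanos2, Lefty2, Msx2, Gata3, Hsd17b3, Mro, Cst9, Ptgds, Hesx1, Mybpc3, Krt42, Pmaip1, Irx3, Phlda2, Prom1, Aatk and Hmx1. Rec8, Dmc1, Sycp3, Tex12, Nodal, Sox9, Msx1 and Dmrtc2 were measured on some E10.5 arrays of each sex, too few for a test at E10.5 alone.

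The E17.5 difference minus the E13.5 difference was negative for the Nodal pathway and Nanos2, with Lefty1 -3.29, Lefty2 -7.85, Nodal -2.99 and Nanos2 -4.31. Among meiotic genes it was Stra8 9.76, Rec8 8.77, Dmc1 2.73 and Tex12 1.89, while Sycp3 had -1.66. Of BMP-responsive genes, Gata2 6.45, Msx1 2.73, Msx2 8.73 and Gata3 7.21 were positive. Pluripotency and male germ cell genes had Pou5f1 3.83, Nanog 2.38, Dppa4 1.79, Alpl 4.14, Dnmt3l 7.61 and Morc1 2.59, but Dppa3 -5.21, Cdh1 -3.36, Kit -2.71 and Ooep -3.04 were negative. Of the retinoic acid list, Crabp1 had 4.25. Cell cycle and signalling genes had Ccnd1 4.45, Cdkn2d 1.43, E2f2 2.40, Dusp6 1.60 and Fzd3 2.65. Other positive values were Tex101 3.45, Irx3 2.89, Phlda2 11.30, Dmrtc2 5.32, Prom1 6.20, Cdx2 6.49, Aatk 11.22 and Hmx1 5.43. Other negative values were Ucma -4.53, Krt42 -2.13 and Pmaip1 -5.62. Of the named genes in this comparison, 18 had no array well above background in at least 1 sex at 1 of the 2 stages, namely Lefty1, Lefty2, Nodal, Nanos2, Msx1, Msx2, Gata3, Nanog, Dnmt3l, Irx3, Phlda2, Prom1, Cdx2, Aatk, Hmx1, Ucma, Krt42 and Pmaip1. Of these, Lefty2 and Nodal had no array at E17.5 in either sex.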

How the results depend on the processing

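Each result was recomputed under 18 alternatives. The 1505 calls at E13.5 became 447 with normexp, 678 with the deposited table, 612 without a filter, 312 with the E13.5 arrays alone, 720 with the PGC arrays alone and 2360 with slide as a random block; all other alternatives with all 4 arrays gave 1137 to 1913. Leaving out 1 array gave 721 (without female 1), 797 (male 2), 899 (female 2) and 1357 (male 1). The genes whose sex difference differed between E13.5 and E10.5, 522, became 47 with normexp and with the deposited table, 89 without a filter, 88 with the PGC arrays alone, 305 with only genes measured on all 4 arrays, 196 with the replicate block, 830 with scan day as a replicate block, 317 and 1337 with slide as a fixed and random block, and 226 to 644 without 1 array. Those that differed between E17.5 and E13.5, 3090, became 1063 (normexp), 1044 (deposited table), 1932 (no filter) and 1923 (PGC arrays). The 4911 calls at E17.5 became 2533 and 2355 with normexp and the deposited table, and the 0 at E10.5 became 1 under quantile normalization and 6 with a common floor.

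The meiotic list median, -1.35, was -0.57 with normexp and -2.40 with the deposited table, against autosomal medians of 0.21 and -1.15. That of the Nodal list, 1.37, was 0.32 with the deposited table, 0.57 with a common floor, 0.50 with only genes measured on all 4 arrays and 1.01 without a filter. Leaving out 1 array moved neither median by more than 0.354, the SD between pairs pooled over the lists (-1.44 to -1.19 and 1.04 to 1.31). The 64 named calls kept their direction wherever they were fitted, except Tdrd12 (-0.15 with the deposited table) and Dnmt3l, Fzd3, Irx3, Wt1 and Zp1, which had a difference of 0 with a common floor, and 31 of them passed the filter for all 4 arrays; 22 were lost with normexp (among them Dmc1, Gata3, Id2, E2f2 and Rrm2), 15 with a common floor (among them Sox9, Hsd17b3 and Mro), 21 with the deposited table, and 9 to 18 without 1 array. The replicate block lost 8 (Alpl, Dnmt3l, Foxh1, Fzd3, Gatm, Lin28b, Morc1 and Tdrd7), and scan day or slide as a random block lost none. Of genes without a call, Pou5f1 was -0.23 in the deposited table, Dazl ranged over -0.26 to 0.03 and Sox2 over -0.38 to 0.03 without 1 array. The deposited table differs from the main values by a constant per array, so all its E13.5 differences moved together. Against the autosomal median, the Nodal list was at 1.47 and the meiotic list at -1.25 with both scalings. The cause of the other changes was not tested. Signal limits the dim genes: 6.42% of the genes called higher had no array well above background in females and 11.5% of those called lower had none in males, so their differences can be given as bounds only.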
